A study of Homo sapiens with 8 samples.

Results

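ChIP-on-chip of the transcription factor SMAD3 in unstimulated A549 cells was examined on 4 of the 8 promoter arrays of the series. The 4 arrays were chosen by their labels and made up 2 replicates, each hybridised to 2 slides that carried different probes. A549 is an established line derived from a human lung adenocarcinoma with features of alveolar type II cells. The cells were untreated, grown in F12-K medium with fetal bovine serum and, per the study's methods, deprived of serum before the experiment. The other 4 arrays held the same line after treatment with TGFβ1 (2 ng/ml, at most 2 h). The study's text gives a shorter stimulation and more array replicates than these labels, which were followed here. Each array carried Cy5-labelled DNA of the SMAD3 IP beside Cy3-labelled DNA of the mock IP. The labels name the mock antibody anti-FLAG in 1 field and control IgG in another. No array had the dyes exchanged, so the dye and the antibody cannot be told apart in any ratio below. The labels call the replicates biological, and the p-values measure the spread between these 2 samples per condition.

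SMAD3 is an intracellular mediator of TGFβ signaling. The type I receptor phosphorylates it, after which it forms a complex with SMAD4, accumulates in the nucleus and binds DNA, usually together with other transcription factors. SMAD3 recognises the short element GTCTG and its reverse complement, and GC-rich elements such as GGCGC have also been described for it. In cells that have received no ligand, SMAD3 shuttles between cytoplasm and nucleus, and the basal level is the reference against which stimulated binding is usually read.

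The log2 ratio of SMAD3 IP over mock IP was computed for 472988 probes and centred on the median of each array, so that a value of 1 stands for a ratio of SMAD3 IP to mock IP 1 log2 unit above that median. Of these probes, 40.9% were well above background in both channels on both unstimulated replicates, and these are called measured probes below. On 36.8% to 45.8% of the probes per unstimulated array the software had replaced both signals by surrogate values, and the median centred log2 ratio of these probes was 0.01 to 0.05. The array median therefore lay where probes without signal lay, and the measured probes had a median of −0.56 to −0.22 per array. The ratio correlated between the unstimulated replicates with r = 0.82 on slide 1 and r = 0.95 on slide 2, and with the stimulated replicates with r = 0.19 to 0.23. Over the 160921 probes well above background on the replicates of both conditions, the unstimulated replicates correlated with r = 0.94, and with the stimulated ones with r = 0.31 to 0.34.

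Enrichment in the SMAD3 IP was concentrated around transcription start sites. From the start to 250 bp downstream, 26.6% of the probes in replicate 1 and 27.3% in replicate 2 had a log2 ratio over 1. Among probes more than 3000 bp upstream, the shares were 5.53% and 5.59%. The share rose steadily towards the start, from 6.49% ± 0.15 (SD, n = 2) between 2000 and 1000 bp upstream to 9.34% ± 0.15 between 1000 and 500 bp, 13.9% and 14.2% between 500 and 250 bp and 22.4% ± 0.15 in the last 250 bp. Downstream it fell to 17.0% ± 0.26 between 250 and 800 bp and to 7.14% ± 0.04 beyond 800 bp. In steps of 100 bp the highest share was found in the first 100 bases from the start, with 29.3% and 29.7% of 8511 probe positions. From 2000 bp upstream onwards, the replicates of one distance class did not overlap with those of the next.

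The opposite tail had no such peak. The share of probes with a log2 ratio under −1 lay between 17.5% and 22.1% in replicate 1 and between 20.3% and 25.0% in replicate 2 in all 9 distance classes, with its highest value between 250 and 800 bp downstream in both. In the first 250 bp downstream it was 21.0% ± 1.59 (SD, n = 2), against 18.9% ± 2.00 beyond 3000 bp upstream. The 2 tails thus had different shapes along the promoter.

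**Figure D1:**
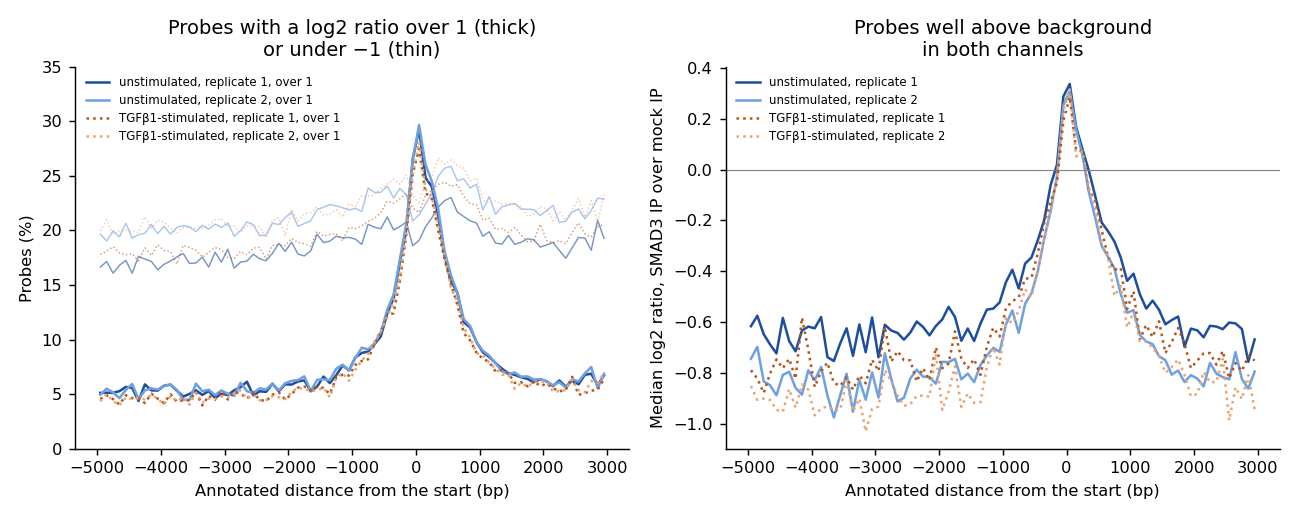
Share of probes with a log2 ratio over 1 (thick lines) or under −1 (thin lines) and the median log2 ratio of probes well above background in both channels, by annotated distance from the transcription start in steps of 100 bp, one line per replicate (solid, unstimulated; dotted, TGFβ1-stimulated; for the dotted lines in the right panel, probes measured on all 4 replicates). The share over 1 reached 29.3% and 29.7% in the first 100 bases in unstimulated cells, while the share under −1 had no peak at the start.

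Benjamini-Hochberg adjusted calls of limma at 0.05 were then made per probe. Over all probes, 8.92% (42201) were called higher in the SMAD3 IP and 17.4% (82527) lower. Without replicate 1 the counts were 22348 and 48155, and without replicate 2 they were 19298 and 38515. Each of these fits takes its spread from the stimulated pair, so the lone unstimulated sample is assumed to vary as that pair does. In the first 250 bp downstream of a start, 27.8% were called higher and 20.3% lower, and in the last 250 bp upstream 22.9% and 19.5%. Beyond 3000 bp upstream, 4.73% were called higher and 15.1% lower. Only around the start did higher calls outnumber lower calls, with the array median as the zero.

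Among measured probes the level of the ratio itself followed the same course. Their median log2 ratio was 0.22 in replicate 1 and 0.21 in replicate 2 in the first 250 bp downstream. It was 0.10 and 0.05 in the last 250 bp upstream, −0.19 and −0.30 between 500 and 250 bp, and −0.64 and −0.81 beyond 3000 bp. The difference between the core promoter, within 250 bp of the start, and the distal upstream region, beyond 3000 bp, was 0.87 ± 0.10 (SD, n = 2) over measured probes. Over all probes, most of which sat near the array median, the same difference was 0.03 ± 0.01 (SD, n = 2).

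Signal in the mock IP moved with position too. The median mock signal was 9.21 and 9.60 on the log2 scale in the first 250 bp downstream, against 6.14 and 5.40 beyond 3000 bp upstream, and the share of measured probes was 77.2% against 29.8%. When measured probes were divided into 5 groups of equal size by their mean log2 signal, core probes still had the higher ratio in each group. The core minus distal difference was 0.28 ± 0.06 (SD, n = 2) in the dimmest group and 1.72 ± 0.03 in the brightest. In the brightest group, core probes had a median of 0.45 and 0.40 and distal probes a median of −1.29 in both replicates.

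The annotation of the arrays assigns each probe to a class by its place relative to genes. Probes inside genes had a log2 ratio over 1 in 10.9% ± 0.13 (SD, n = 2) of cases and probes at divergent promoters, which serve a pair of genes read in opposite directions, in 10.8% ± 0.35. The shares were 8.11% ± 0.07 for probes of other promoters, 7.67% ± 0.07 for the class marked unknown and 5.93% ± 0.02 for probes downstream of genes. Within 250 bp of a start, the share was 26.9% ± 0.54 inside genes, 23.4% ± 0.67 at divergent promoters and 22.1% ± 0.07 at other promoters. Farther than 250 bp from the start the same classes had 9.28% ± 0.09, 7.41% ± 0.27 and 6.75% ± 0.06. Distance from the start thus separated the probes more than the class did.

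Probes that lay close together on the chromosome had like ratios. Pairs of probes with starts 50 to 149 bp apart correlated with r = 0.39 in replicate 1 and r = 0.38 in replicate 2, over 174323 pairs. The correlation was 0.31 in both at 150 to 249 bp, 0.20 and 0.21 at 250 to 399 bp, 0.11 in both at 400 to 699 bp and 0.01 in both at 1500 to 2999 bp. In ChIP a DNA fragment carries its signal to all probes that it covers. These correlations are descriptions across probes that share a library, and probes are not independent replicates. The mock signal of the same pairs correlated with r = 0.50 and 0.53 at 50 to 149 bp and still with r = 0.12 and 0.14 at 1500 to 2999 bp. Pairs of probes well above background on the replicates of both conditions gave other values. Their mock signal correlated with r = 0.21 and 0.22 at 50 to 149 bp, against 0.35 and 0.34 for the ratio. At 1500 to 2999 bp the mock signal had r = 0.02 in both, and the ratio −7.48e-05 and −0.00407.

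**Figure D2:**
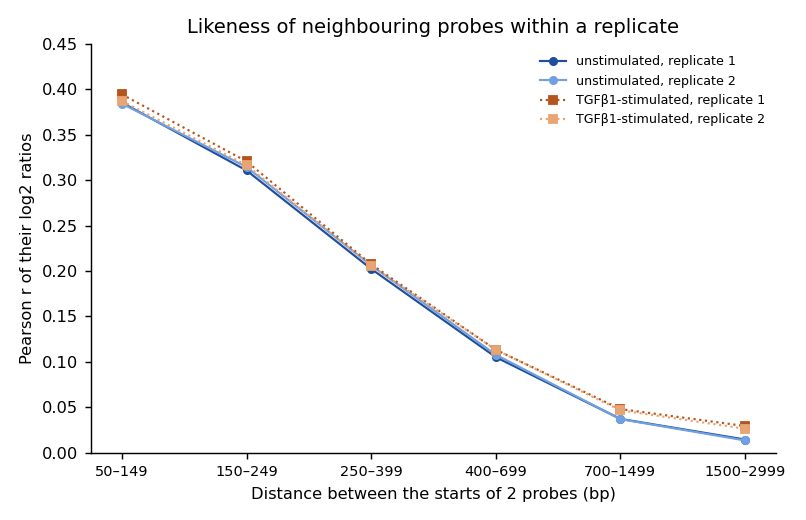
Pearson correlation between the log2 ratios of 2 probes of a replicate, by the distance between their starts in bp, for all pairs of probes on a slide (circles, unstimulated; squares, TGFβ1-stimulated). In the unstimulated replicates r fell from 0.39 and 0.38 at 50 to 149 bp to 0.01 at 1500 to 2999 bp.

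Measured probes called higher were joined into runs where at least 3 neighbours lay at most 500 bp apart. This gave 2125 runs with 7571 probes, which were 19.5% of the 38856 measured probes called higher, with a median span of 391 bp. In 57.8% of these runs, the range of the probes' distances to their nearest starts overlapped the 250 bp on either side of a start. The nearest starts in a run can belong to different genes, so that some of these runs may hold no probe there. Measured probes called lower formed 4243 runs, of which 21.1% had such a range. The runs were formed from the same calls as above and carry no test of their own.

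The run with the highest mean lay 1291 to 1551 bp downstream of the start of CDK4, which encodes a kinase that drives the cell through G1. Its 3 probes had a mean of 8.93 in replicate 1 and 8.75 in replicate 2, and 0.23 and 0.53 in the stimulated replicates. The next runs were found at COG2, a subunit of the conserved oligomeric Golgi complex (8.54 ± 0.27, SD, n = 2, 4 probes from 555 bp upstream to 56 bp downstream), at CDH13, which encodes T-cadherin (8.52 ± 0.11), at FXYD5 (8.48 ± 0.40) and at FAM71A (8.42 ± 1.26). In the stimulated replicates the means of these 5 runs lay between −0.47 and 0.86. The longest runs of probes called higher had 9 probes and lay at DCPS, the scavenger enzyme of mRNA caps (6.95 ± 0.20), at FAM91A1 (6.66 ± 0.54) and 4312 to 5483 bp upstream of METRNL (5.91 ± 0.32). The run at DCPS reached from 162 bp upstream to 1097 bp downstream of its start.

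The longest runs and the lowest runs were singled out after their values were seen. The lowest were found at ST8SIA2, a sialyltransferase of the nervous system (−7.15 ± 0.32), CPLX2, which encodes complexin 2 (−7.14 ± 1.01), C20orf28 (−6.88 ± 0.44), DPEP1, a dipeptidase (−6.80 ± 0.45) and DDX3X, an RNA helicase (−6.73 ± 0.10). At DPEP1 the same 3 probes had a mean of 7.99 in the stimulated replicates, while the other 4 runs lay between −1.66 and 0.09. Among measured and unsaturated single probes, the highest values belonged to RNF207 (11.2 ± 0.28), VEPH1 (11.1 ± 0.41), PLXNC1 (10.9 ± 0.50), DHRS7B (10.5 ± 0.29) and LCN2 (10.5 ± 0.18). The lowest belonged to SEMA4A (−8.97 ± 0.39), PRKRIR (−8.85 ± 0.37), HS6ST2 (−8.79 ± 0.40), LOC643923 (−8.61 ± 0.89) and FLJ22167 (−8.59 ± 0.66). Of these 10 probes only those of DHRS7B and LOC643923 lay within 250 bp of the start.

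For each of 16299 genes, the ratio was averaged over the probes that lay at most 2000 bp before or 800 bp behind its annotated start, with a median of 10 probes per gene. At the basal level 3371 genes (20.7%) were higher in the SMAD3 IP and 6215 (38.1%) lower (limma, adjusted p under 0.05). The medians of all genes were −0.10 in replicate 1 and −0.16 in replicate 2. The balance depended on the zero of the scale. With each array centred on its measured probes, which moved gene values up by a median of 0.54, 8553 genes were higher and 2931 lower, the median of all genes was 0.31 in place of −0.12, and the share of higher among called genes rose from 35.2% to 74.5%. All 3371 genes called higher kept that call with the other centre, 2931 genes were lower with both, and 87 genes passed from lower to higher. Loess within each array gave 6823 higher and 3406 lower, and normexp background correction 343 and 410. Directions of single genes below are therefore relative to the array median. Of the 77 named genes, 50 kept their sign and lost their call with normexp. FOXA2, ID2 and TAGLN turned sign with it and lost their call too. With the median over the probes of a gene, 22 kept their sign and lost their call, and 4 turned sign. Of those that turned, ADAMTS4, JUNB and LTBP3 lost their call too, and SMAD6 had none. These losses are not given for every gene below.

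The 10 genes with the highest mean among called genes with at least 3 measured probes reached 4.52 to 6.59, and no replicate of theirs was below 4.44. C6orf70 (now ERMARD) led with 6.61 in replicate 1 and 6.56 in replicate 2, and its 3 probes lay between 64 bp upstream and 371 bp downstream of the start. IVD, which encodes isovaleryl-CoA dehydrogenase of leucine catabolism, followed with 6.01 and 5.77. Its 6 probes from 65 to 712 bp downstream had values of 5.70 to 9.54 in both replicates, whereas its probes at 1679 and 1106 bp upstream had 0.02 to 0.25. PUS7L, a putative pseudouridine synthase, had 5.64 and 5.42, with 3 probes from 196 to 500 bp downstream at 7.96 to 9.40 and the probes at the start at 0.39 to 1.11. At IVD and PUS7L the high probes thus lay downstream of the start.

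HSPE1 encodes the mitochondrial chaperonin that works together with the product of its neighbour HSPD1, with which it shares a divergent promoter. HSPE1 had 4.74 and 5.26, but its probe 520 bp downstream read 0.27 in replicate 1 and 7.96 in replicate 2, and its highest probe, 650 bp downstream, was not well above background in both channels. HSPE1 was the only one of the 10 genes to lose its call when the median over its probes replaced the mean. With normexp background correction, HSPE1, LOC348180 and C6orf138 lost their calls. HSPD1, named here after its value was seen, had 0.22 and −0.19 over 9 probes, and it was not called (adjusted p = 0.937). HAPLN3, a hyaluronan and proteoglycan link protein, had the broadest signal, with 4.59 and 4.45 over 13 probes, all of them measured. Its 10 probes from 1356 bp upstream to 752 bp downstream read 1.60 to 8.68, and the 2 probes at 1632 and 1470 bp upstream read −1.86 to −0.71. The other 5 genes were LOC348180 (5.25 ± 0.01, SD, n = 2), FLJ40869 (4.89 ± 0.40), AKAP14, an anchor of protein kinase A (4.83 ± 0.05), FXYD7, a regulator of the sodium pump (4.63 ± 0.22), and C6orf138 (4.60 ± 0.22). The largest adjusted p among the 10 was 3.00e-07.

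Under the same limit of at least 3 measured probes, the 10 lowest called genes had means of −5.16 to −4.15. They were HCG3 (−4.45 in replicate 1 and −5.88 in replicate 2), LOC130940 (−5.01 ± 0.55, SD, n = 2), C14orf131 (now ZNF839, −4.91 ± 0.09), KRT6A, which encodes a keratin of stratified epithelia (−4.65 ± 0.03), C20orf196 (−4.58 ± 0.39), DLG4, which encodes the postsynaptic scaffold PSD-95 (−4.57 ± 0.27), BRAP, which binds BRCA1 (−4.50 ± 0.13), DKFZP566E164 (−4.34 ± 0.35), AOC3, an amine oxidase (−4.29 ± 0.23) and C1orf2 (−4.15 ± 0.37). KRT6A had values of −6.38 to −4.09 at 9 neighbouring probes, of which the SMAD3 IP or mock IP signal of 5 was not well above background on at least 1 replicate, so that those values are bounds. With normexp background correction, all of the 10 lowest genes except DKFZP566E164 and C1orf2 lost their call.

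**Figure D3:**
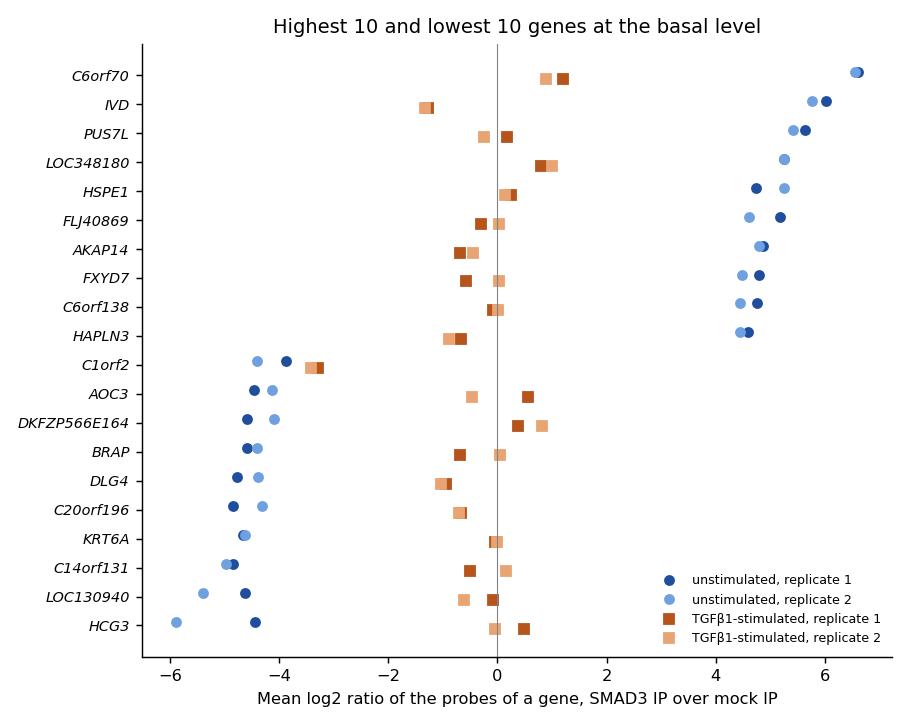
Mean log2 ratio of SMAD3 IP over mock IP of the probes of a gene (horizontal axis) for the 10 highest and 10 lowest genes in unstimulated cells, one point per replicate (circles, unstimulated; squares, TGFβ1-stimulated). The highest 10 lay between 4.44 and 6.61 in unstimulated replicates and between −1.33 and 1.19 in stimulated ones. The genes were picked by their unstimulated values.

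The same genes had other values in stimulated cells. All stimulated replicates of the 10 highest genes lay between −1.33 and 1.19, and those of the 10 lowest between −3.42 and 0.82, where C1orf2 had −3.35 ± 0.10 (SD, n = 2) and the other 9 lay at −1.03 or above. Since these genes were picked for their unstimulated values, part of this difference is fixed by the choice, and it is given as a description. Over all genes tested, 3305 (20.3%) had a higher ratio after stimulation and 4479 (27.5%) a lower one. Of the 3371 genes called higher at the basal level, 1341 (39.8%) were also called higher after stimulation, and 808 were called lower. Of all genes, 16.5% were called higher and 6931 of 16299 lower after stimulation. In contrast to single genes, the profile along the promoter was alike in both conditions. In the first 250 bp downstream, 25.1% and 25.5% of the probes of stimulated replicates had a log2 ratio over 1. With 2 replicates against 2, an exact permutation test cannot give a p below 0.333, and the difference between these profiles was not tested.

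Promoter sequences were taken from RefSeq (GRCh38.p14), from 250 bases before to 50 bases after the start. They are shown for 4 of the highest genes and 2 of the lowest whose core probes were measured, and for LTBP3, a target named by the study, so that the base composition at high and low ratios can be compared, and they were chosen after the values were seen. Capitals mark GTCTG or its reverse complement CAGAC and GGCGC or its reverse complement GCGCC, and GGCGCC holds both of the latter. The probe annotation may place the start elsewhere than RefSeq does.
C6orf70 (chr6:169751372-169751671, plus strand): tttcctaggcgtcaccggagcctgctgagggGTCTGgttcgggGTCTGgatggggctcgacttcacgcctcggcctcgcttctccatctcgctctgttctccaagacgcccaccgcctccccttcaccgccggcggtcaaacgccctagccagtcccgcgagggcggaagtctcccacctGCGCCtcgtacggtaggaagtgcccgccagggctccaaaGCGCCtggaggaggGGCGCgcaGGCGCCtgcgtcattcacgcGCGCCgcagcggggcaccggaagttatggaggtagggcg
IVD (chr15:40405545-40405844, plus strand): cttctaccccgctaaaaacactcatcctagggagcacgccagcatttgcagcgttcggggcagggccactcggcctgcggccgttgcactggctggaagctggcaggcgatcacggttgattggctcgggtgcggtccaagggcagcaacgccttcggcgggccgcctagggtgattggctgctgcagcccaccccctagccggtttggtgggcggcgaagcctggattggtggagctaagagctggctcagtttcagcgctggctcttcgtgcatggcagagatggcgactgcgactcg
HSPE1 (chr2:197500129-197500428, plus strand): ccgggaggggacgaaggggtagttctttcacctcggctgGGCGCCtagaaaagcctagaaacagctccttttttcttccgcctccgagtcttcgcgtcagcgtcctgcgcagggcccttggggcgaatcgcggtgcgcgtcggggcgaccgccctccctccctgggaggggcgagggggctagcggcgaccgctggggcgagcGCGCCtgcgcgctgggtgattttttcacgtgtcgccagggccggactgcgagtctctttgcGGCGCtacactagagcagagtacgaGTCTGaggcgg
HAPLN3 (chr15:88895495-88895794, minus strand): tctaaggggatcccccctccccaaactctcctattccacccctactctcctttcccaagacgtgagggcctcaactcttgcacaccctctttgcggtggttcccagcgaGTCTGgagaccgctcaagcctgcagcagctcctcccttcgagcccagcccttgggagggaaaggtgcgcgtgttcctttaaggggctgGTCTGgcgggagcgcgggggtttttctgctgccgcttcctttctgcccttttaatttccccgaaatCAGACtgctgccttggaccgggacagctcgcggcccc
C14orf131 (chr14:102319496-102319795, plus strand): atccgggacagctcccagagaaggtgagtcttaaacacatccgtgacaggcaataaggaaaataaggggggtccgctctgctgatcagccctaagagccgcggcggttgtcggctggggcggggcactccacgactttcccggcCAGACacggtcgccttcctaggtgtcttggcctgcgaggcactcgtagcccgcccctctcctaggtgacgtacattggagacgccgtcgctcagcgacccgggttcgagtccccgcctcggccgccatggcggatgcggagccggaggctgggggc
DLG4 (chr17:7220001-7220300, minus strand): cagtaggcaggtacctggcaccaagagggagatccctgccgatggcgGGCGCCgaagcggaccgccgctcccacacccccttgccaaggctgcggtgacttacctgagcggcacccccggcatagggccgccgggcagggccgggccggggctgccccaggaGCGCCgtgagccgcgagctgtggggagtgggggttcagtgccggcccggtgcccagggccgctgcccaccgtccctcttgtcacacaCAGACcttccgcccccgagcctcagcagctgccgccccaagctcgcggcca
LTBP3 (chr11:65558310-65558609, minus strand): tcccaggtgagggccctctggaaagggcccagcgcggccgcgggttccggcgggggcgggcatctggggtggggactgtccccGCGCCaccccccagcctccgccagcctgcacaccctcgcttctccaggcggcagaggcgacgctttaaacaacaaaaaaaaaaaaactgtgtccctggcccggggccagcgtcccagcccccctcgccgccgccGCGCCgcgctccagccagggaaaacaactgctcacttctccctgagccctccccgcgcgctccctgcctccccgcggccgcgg

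The mean ratio of the probes within 250 bp of the start was 5.67 ± 0.11 (SD, n = 2) at C6orf70, 8.09 ± 0.35 at IVD, 2.09 ± 0.12 at HSPE1 and 6.14 ± 0.33 at HAPLN3, against −4.38 ± 0.02 at C14orf131, −4.74 ± 0.41 at DLG4 and 0.43 ± 0.07 at LTBP3. C6orf70 held 2 matches to GTCTG and 6 to GGCGC, HSPE1 held 1 and 4, and DLG4 held 1 and 3, on both strands and with overlaps counted. IVD held neither. HAPLN3 held 3 matches to GTCTG and none to GGCGC, C14orf131 held 1 and none, and LTBP3 held none and 2. Both elements thus occurred at high and at low ratios.

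A promoter sequence was found for 12999 of 15762 genes (82.5%) on the chromosomes that the table covers. GTCTG on either strand occurred in 41.1% of the promoters of genes called higher, 45.3% of those called lower and 44.4% of the rest. It occurred in 44.0% over these 12999 genes and in 12274 of all 27305 promoters in the table. GGCGC occurred in 79.8%, 59.9% and 62.7%, against 65.3% over these genes and 48.3% of all promoters in the table. The 8-base palindrome GTCTAGAC occurred in 0.18%, 0.06% and 0.17% (0.13% over these genes, 55 of all promoters). TGACTCA or TGAGTCA, the element of AP-1, occurred in 2.85%, 4.22% and 3.43% (3.60% over these genes, 4.92% of all promoters). A match to these letters is not a binding site. GGCGC consists of G and C alone, and its share was therefore also read at like G+C. Among promoters of 52.7% to 60.7% G+C, 19.7% of the 1402 genes with GGCGC and 13.0% of the 1311 genes without it were called higher. In the groups below and above it, the shares with and without GGCGC were 14.8% and 8.68% at the lowest G+C, 22.7% and 17.5% in the third group and 27.9% and 20.1% in the fourth. Among promoters of 72.7% G+C and above, the shares were 31.3% of 2419 genes with it and 31.2% of only 77 genes without it. These differences were not tested.

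The share of genes with a high ratio at the core promoter rose with G+C. With genes divided into 5 groups by G+C of the promoter, 7.16% and 8.38% of the genes of the lowest group (up to 52.3%) had a mean core log2 ratio over 1 in replicates 1 and 2. In the next groups the shares were 13.0% in both, 18.1% and 18.7%, 26.6% and 27.6%, and 38.7% and 38.0% in the highest group. Genes under −1 made up 12.5% and 15.5% of the lowest group, 18.6% and 21.1% of the next, and 8.79% and 9.45% of the highest. The median core ratio did not rise throughout, with −0.01 and −0.03 in the lowest group, −0.07 and −0.12 in the second, 0.07 and 0.02 in the third, 0.29 and 0.28 in the fourth and 0.66 and 0.63 in the highest. Genes called lower made up 36.1% of the lowest group, 46.0% of the second and 29.8% of the highest. The median number of CG dinucleotides was 29 in promoters of genes called higher and 20 in those of genes called lower. The mock signal rose along the same groups, from a median of 6.86 and 6.54 on the log2 scale to 10.8 and 11.2. The share of core probes that were measured rose as well, with 36.5%, 68.2%, 81.5%, 87.1% and 90.3%. Probes without signal lay near the array median, where a gene passes neither limit, and the part of this in the shares was not tested. A part of the core promoters was also divided into 3 groups by mock signal. From the lowest to the highest G+C, the median core ratio was 0.46 ± 0.07 (SD, n = 2), 0.18, 0.39, 0.66 and 1.03 ± 0.02 in the dimmest group, 0.46 ± 0.06, −0.10, 0.01, 0.58 and 0.98 ± 0.00 in the middle one and −0.77 ± 0.01, −0.97, −0.66, −0.20 and 0.56 ± 0.00 in the brightest. In each it fell from the lowest to the second G+C group and was highest at the highest G+C. Of the lowest G+C group, the 3 mock groups held only 140, 100 and 148 genes, beside 2555 genes with core probes in that group. The fall therefore rests on few genes. Stimulated cells had 33.4% and 33.0% of genes over 1 in the highest group. The part of the mock signal in these values was not tested further.

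**Figure D4:**
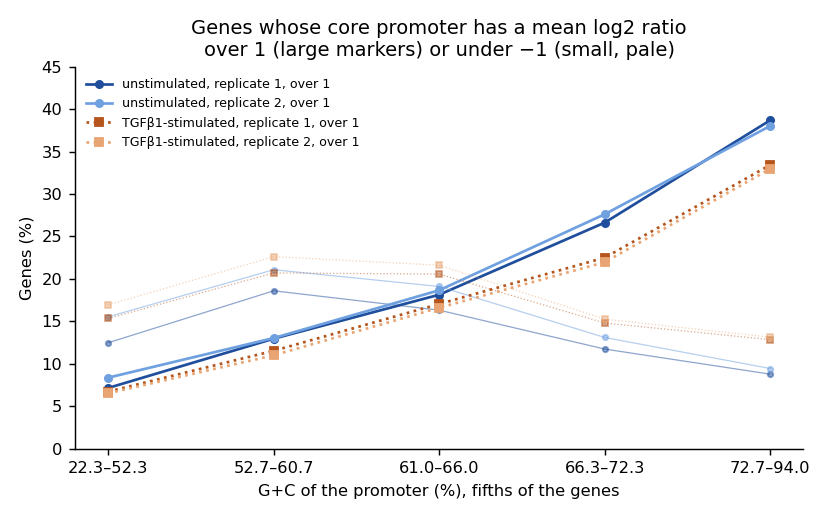
Share of genes (%) whose probes within 250 bp of the start had a mean log2 ratio over 1 (large markers) or under −1 (small pale markers), by G+C content of the RefSeq promoter, for each replicate (circles, unstimulated; squares, TGFβ1-stimulated). The share over 1 rose from 7.16% and 8.38% to 38.7% and 38.0% in unstimulated replicates. The share of core probes that were measured rose from 36.5% to 90.3% over the same groups.

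The members of the TGFβ pathway were read by their roles, against 20.7% of all genes called higher and 38.1% called lower. Counts with measured probes as the centre stand against 8553 higher and 2931 lower of all 16299 genes. Where a member is named beside a count and not by the rule for named genes, it was named after its value was seen. Of the 8 SMAD genes, SMAD1, SMAD4 and SMAD7 were called higher and SMAD2 lower, with list medians of 0.14 and 0.20 in replicates 1 and 2. On the scale centred on measured probes, 6 were higher and 1 lower. SMAD7 encodes an inhibitory SMAD that is induced by the pathway it restrains. It had 0.53 and 0.46 (adjusted p = 0.00245), and the ratio was highest at a probe 579 bp downstream of the start, with 2.62 and 2.71. SMAD4, the common partner of receptor-regulated SMADs, had 0.59 and 0.42, with 4 probes from 173 bp upstream to 518 bp downstream at 2.15 to 2.90. SMAD2, the close relative of SMAD3, had −0.95 and −0.83 (adjusted p = 1.52e-04). The calls of SMAD7 and SMAD4 were lost with normexp and with the median over their probes, and that of SMAD2 with normexp. SMAD6, the other inhibitory SMAD, had 0.07 and −0.06 over its 13 probes, a mean of 0.00 ± 0.09 (SD, n = 2), which joined probes at 2.03 and 2.31 and at −2.69 and −3.09. The promoter of SMAD3 itself had 0.21 and 0.18 (adjusted p = 0.134).

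Of the 10 corepressors, phosphatases and ubiquitin ligases that restrain SMADs, PPM1A, SKI, SMURF2 and TRIM33 were called higher and NEDD4L, SMURF1 and TGIF2 lower, and with measured probes as the centre 7 were higher and 1, TGIF2, lower. PPM1A encodes a phosphatase that acts on activated SMAD2 and SMAD3. It had 2.38 and 2.27 (adjusted p = 7.62e-07), the highest mean among the pathway genes listed here, and the probe 478 bp upstream read 9.36 and 9.76 and the probe 323 bp upstream 7.93 and 8.06, while the probe 48 bp downstream read −0.23 and −0.21. After stimulation PPM1A had −0.54 and −0.43. TGIF2, a homeobox corepressor, was the lowest with −1.64 and −1.79 (adjusted p = 4.32e-06). TRIM33, which binds activated SMAD2 and SMAD3, had 1.17 ± 0.04 (SD, n = 2) over its 7 measured probes (adjusted p over all its probes 1.33e-04), and 1.67 and 1.25 over all its probes after stimulation.

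Of the 7 ligands and latent binding proteins, LTBP3 was called higher and LTBP2, LTBP4 and TGFB1 lower. The balance turned to 4 higher and 1 lower with measured probes as the centre, and LTBP2 went from −0.33 to 0.21. LTBP3 holds TGFβ in the extracellular matrix in its latent form. It had 0.23 and 0.41 (adjusted p = 0.0271), a call that was lost without replicate 2 (0.23), with normexp and in a window of 500 bp on either side of the start, and the value was −0.21 with the median over its 13 probes. TGFB1 had −0.73 and −0.78 over 7 measured probes, with −5.52 and −5.44 at 407 bp upstream and 1.79 and 1.73 at 668 bp downstream. Its call was lost with measured probes as the centre (−0.22), with loess (−0.13) and with normexp (−0.38). LTBP4 had −1.12 and −1.01. Of the 13 receptors and coreceptors, ACVR2A and BMPR1A were higher and ACVR1B, AMHR2, BMPR1B and ENG lower. On the scale centred on measured probes, 8 were higher and 0 lower, so that all 4 lower calls were lost, and ACVR1B went from −0.31 to 0.23. BMPR1A, a type I receptor of BMP signaling, had 1.18 and 1.25 (adjusted p = 4.60e-05), and AMHR2, the receptor of anti-Müllerian hormone, −0.67 and −0.80. Both of these calls were lost with normexp and with the median over the probes. The TGFβ receptors TGFBR1 and TGFBR2 passed no threshold, with 0.24 and −0.11 and with 0.14 and −0.41. Of the 26 BMP, GDF and activin ligands, BMP3, BMP6, BMP8A, BMP8B and BMP15 were higher and 11 genes lower, with GDF2 at −2.57 ± 0.58 (SD, n = 2) and BMP15 at 0.86 ± 0.03. This balance turned to 15 higher and 7 lower with measured probes as the centre.

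**Figure D5:**
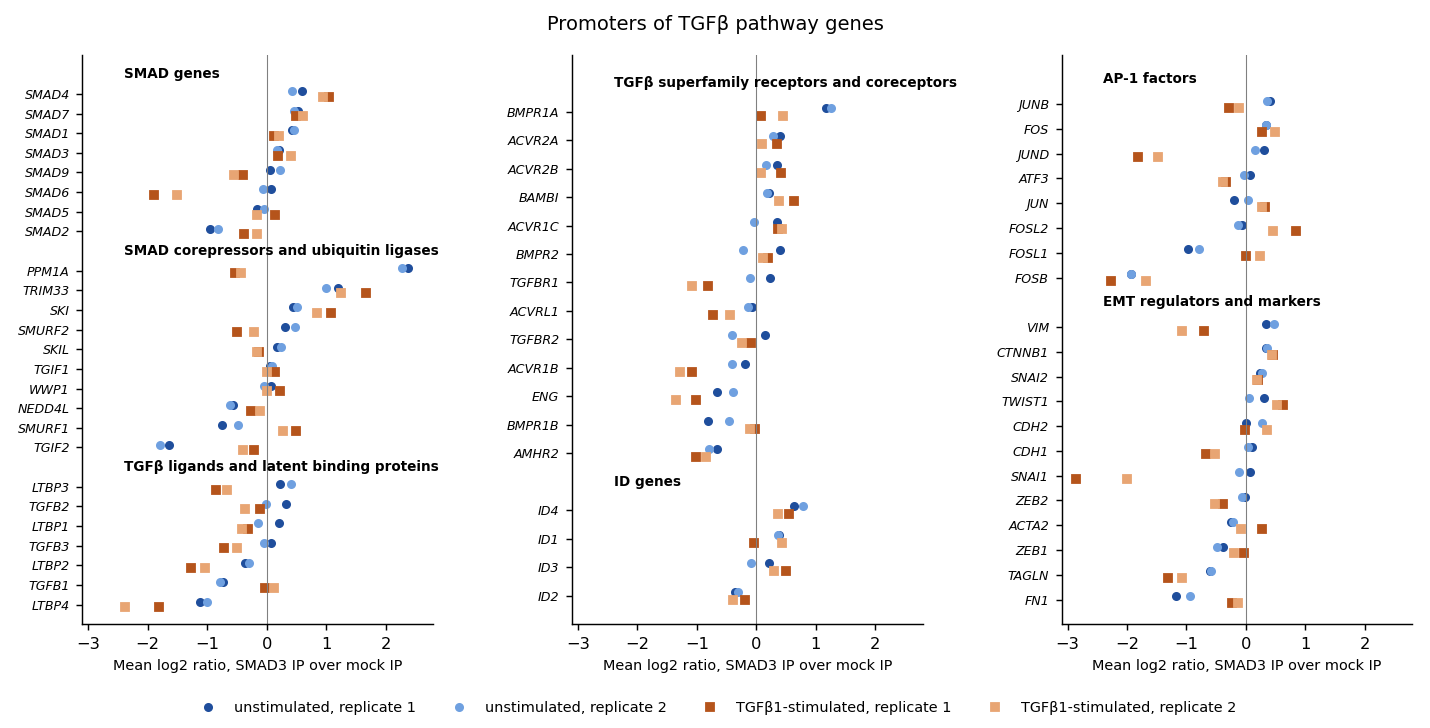
Mean log2 ratio of SMAD3 IP over mock IP of the promoter probes of TGFβ pathway genes, grouped by role, one point per replicate (circles, unstimulated; squares, TGFβ1-stimulated). Of the genes plotted, PPM1A had the highest unstimulated mean (2.32) and FOSB the lowest (−1.93).

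Genes that SMAD3 complexes are known to act on or with were called in both directions. Of the 4 ID genes, which encode inhibitors of basic helix-loop-helix factors and respond to BMP signaling, ID1 and ID4 were called higher, and ID4 had 0.64 and 0.79. The call of ID4 was lost with normexp and with the median over its probes. ID2 was called lower with −0.37 and −0.31, which became 0.02 with measured probes as the centre and 0.05 with normexp background correction, and its call was lost without either unstimulated replicate. Of the 8 AP-1 factors, which partner SMAD3 on DNA, FOS and JUNB were higher and FOSB and FOSL1 lower. FOSB had −1.93 in both replicates. JUNB had 0.40 and 0.35, and its call was lost without either unstimulated replicate and with normexp, and the value was −0.13 with the median over its probes. Of the 12 regulators and markers of epithelial-mesenchymal transition (EMT), CTNNB1, SNAI2 and VIM were higher and FN1, TAGLN and ZEB1 lower. VIM, which encodes the intermediate filament of mesenchymal cells, had 0.34 and 0.47, and its call was lost without replicate 2 (0.34) and with normexp (0.21). FN1, which encodes fibronectin, had −1.18 and −0.94, and its call was lost with normexp and with the median over its probes. With measured probes as the centre, 3 ID genes were higher and 0 lower, 4 AP-1 factors higher and 2 lower, and 9 EMT genes higher and 1, FN1, lower. Over all 16299 genes, 8553 were higher and 2931 lower on that scale.

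Of the other genes named by the study, TAGLN, COL7A1, FOXA2, RRAS and S100A2 were called lower. The study called binding from locally fitted peaks, and that fit was not repeated here. A lower call means only that the mean over the promoter window lay below the array median. TAGLN, an actin-binding protein and EMT marker, had −0.61 and −0.59 (adjusted p = 0.00121), which was 0.03 with normexp and lost its call with measured probes as the centre (−0.06) and with loess (−0.04). COL7A1, the collagen of anchoring fibrils, had −0.19 and −0.55 (adjusted p = 0.0362). This became 0.07 with loess and 0.17 in a window of 500 bp around the start, and the call was lost in both. The call of COL7A1 was also lost with measured probes as the centre (−0.01), over measured probes, with normexp and with the median over its probes. It was lost too in a fit of the unstimulated replicates alone and without replicate 2 (−0.19). FOXA2, a pioneer factor of lung and liver, had −0.28 and −0.33, and the mean was 0.23 with measured probes as the centre, 0.17 with loess and 0.03 with normexp. Its call was also lost without either unstimulated replicate, over measured probes, in the window of 500 bp and with the median over its probes. RRAS, a small GTPase, had −1.24 and −1.14 (adjusted p = 1.15e-04), and S100A2, a calcium-binding protein, −0.82 and −0.95 (adjusted p = 2.85e-04). Both of these calls were lost with normexp and with the median over the probes. MYO1D (0.20 ± 0.05, SD, n = 2), PDE7B (0.09 ± 0.15), EPS8 (0.03 ± 0.05) and FGB (0.02 ± 0.09) passed no threshold, and none of the 15 probes of FGB was measured.

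In the families below, the members named are the highest and the lowest with at least 3 measured probes. Percentages stand against 20.7% higher and 38.1% lower over all genes. Family counts with measured probes as the centre stand against 8553 higher and 2931 lower of all 16299 genes. Among 13 genes of the lung epithelium, CEBPA, FOXA1, SCGB1A1, SCGB3A1 and TITF1 (now NKX2-1) were called higher and 7 lower, and with measured probes as the centre 5 and 3. CEBPA, a factor of alveolar differentiation, had 0.88 and 1.01 (adjusted p = 4.82e-04) and 0.68 and 1.21 after stimulation. The surfactant gene SFTPB had −0.89 ± 0.16 (SD, n = 2). The calls of CEBPA and SFTPB were lost with normexp and with the median over their probes. Growth arrest and cell cycle genes gave 6 higher and 17 lower of 41 (20 and 9 with the other centre), with CDKN1C, an inhibitor of cyclin-dependent kinases, at 0.55 and 0.65 and CCNA2, cyclin A2, at −1.99 and −2.33. The call of CDKN1C was also lost with normexp and with the median over its probes.

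Collagens gave 5 higher (13.2%) and 21 lower (55.3%) of 38, with COL1A1 at −1.33 ± 0.09 (SD, n = 2) and COL4A4 at 3.24 and 4.62 in the 2 replicates, and with list medians of −0.20 and −0.32. Integrins and laminins gave 4 (11.1%) and 19 (52.8%) of 36, with ITGA3 at 1.08 ± 0.16 and ITGB7 at −1.10 ± 0.17. Metalloproteinases and their inhibitors gave 9 (20.9%) and 18 (41.9%) of 43, with ADAMTS4 at 0.87 ± 0.08 and MMP19 at −3.99 ± 0.14, and ADAMTS4 was −0.46 with the median over its probes. HOX genes, which pattern the body axis, gave 4 (10.3%) and 16 (41.0%) of 39, with HOXA7 at 1.69 ± 0.13 and HOXC4 at −1.94 ± 0.03. With measured probes as the centre the counts of higher and lower were 16 and 6 for collagens and 13 and 9 for integrins and laminins. They were 25 and 8 for metalloproteinases and 20 and 7 for HOX genes. More members were thus higher than lower on that scale, as was so over all genes (8553 and 2931 of 16299).

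Cytosolic ribosomal protein genes gave 18 higher and 21 lower of 74, with medians of 0.02 and −0.07, and with RPS15A at −2.88 ± 0.08 (SD, n = 2) and RPS13 at 2.42 ± 0.31. Subunits of the respiratory chain gave 20 and 28 of 78, with ATP5O at −3.50 ± 0.03 and COX6B1 at 3.44 ± 0.09. Zinc finger genes of the ZNF group gave 69 and 162 of 361, with ZNF784 at 3.59 ± 0.28 and ZNF581 at −4.01 ± 0.09. Replication-dependent histone genes gave 5 and 20 of 54, with HIST1H1E at 0.35 ± 0.23, a call lost without replicate 2, and HIST4H4 at −2.22 ± 0.17, and 21.7% of their probes were measured, against 53.4% over all genes. With measured probes as the centre, these 4 families had 45, 42, 173 and 19 higher and 9, 18, 76 and 8 lower members in the order given.

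The lowest shares of higher calls were found in 5 of the families. Olfactory receptor genes gave 14 higher (4.93%) and 105 lower (37.0%) of 284, with 16.3% of their probes measured, OR1A1 at 0.86 ± 0.16 (SD, n = 2) and OR6S1 at −2.53 ± 0.05, and OR1A1 was −0.11 in a window of 500 bp around the start. Keratin genes gave 3 (6.25%) and 26 (54.2%) of 48, with 45.7% of their probes measured and KRT15 at 0.98 ± 0.22 above KRT6A. Chemokine genes gave 3 (7.69%) and 22 (56.4%) of 39, with 37.8% of their probes measured, CXCL12 at 0.83 ± 0.07 and CXCL6 at −3.30 ± 0.15. Beta-defensin genes gave 0 higher and 7 lower of 10, with 32.9% of their probes measured and DEFB124 at −1.98 ± 0.02, and DEFB32 (now DEFB132) had −0.43 ± 0.19, which became 0.11 with measured probes as the centre and lost its call without replicate 2. Keratin-associated protein genes gave 0 and 13 of 37, with KRTAP5-4 at −1.32 ± 0.06, KRTAP26-1 at 0.21 ± 0.04 and 16.8% of their probes measured. With measured probes as the centre, these 5 families had 155, 21, 15, 3 and 27 higher and 38, 14, 12, 4 and 4 lower members in the order given. All counts of families stand beside those of all genes and were not tested against them.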

How the data were processed

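The 8 arrays came from 2 replicates per condition on 2 slides. The intensity values were deposited as Agilent Feature Extraction 9.5.1.1 output, and per the file headers the authors' processed signals were background-subtracted, detrended, dye-normalized by a linear factor within each array and given surrogates where not above background. The log2 ratios of the deposited series matrix equalled log2 of Cy5 over Cy3 and served as an alternative. IP DNA had been linker-ligated and amplified. Control spots, 19 unmapped and 1404 outlier probes were left out of 474411. Ratios were centred on the array median and fitted with limma 3.58.1 (R 4.3.3) over 4 replicates, and p-values were adjusted by Benjamini-Hochberg over all probes or genes at 0.05. Genes needed 3 probes from 2000 bp upstream to 800 bp downstream. The rule named the 10 highest and 10 lowest genes, genes singled out by the study, each list's extremes, the 5 highest and 5 lowest probes and the 5 highest runs. The 2 channels of an array are the SMAD3 IP and its own mock IP, and the number of arrays limits the precision. Replicate numbers did not pair samples (correlation of deviations 0.02). The probe annotation names no genome build, and probe sequences were not used here. The scripts were tested on simulated data in which 200 probes or genes were changed. Of the changed genes, 95.5% were recovered at a log2 ratio of 1 and 100% at 2, 4 and 8. Of the changed probes, 0% were recovered at 1, 2 and 4, and 75% at 8. The arrays held many more called probes than that, a setting that was not simulated. The genes, lists and tests were chosen with earlier results of these data known. Alternatives are given in the closing section.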

Additional observations from a re-analysis of the deposited data

Results flagged for a closer look

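The stimulated and unstimulated replicates differed in log2 ratio at 59 of the 77 named genes (limma, Benjamini-Hochberg adjusted p under 0.05 over all genes), with 27 higher and 32 lower after TGFβ1 stimulation. Over all 16299 genes, 7784 differed (20.3% higher and 27.5% lower), and most of the 77 were picked as extremes of the unstimulated values, so their share is no result about them. Values in parentheses are stimulated minus unstimulated means. All 20 of the highest and lowest genes were among them, but those were picked by their unstimulated values, as were the extremes of each list, so the direction is partly fixed by the choice. The highest genes fell after stimulation: IVD (−7.20), PUS7L (−5.56), C6orf70 (−5.55), AKAP14 (−5.39), HAPLN3 (−5.30), FLJ40869 (−5.03), FXYD7 (−4.91), HSPE1 (−4.80), C6orf138 (−4.63) and LOC348180 (−4.35). The lowest genes rose: HCG3 (5.39), DKFZP566E164 (4.94), C14orf131 (4.73), LOC130940 (4.66), KRT6A (4.63), AOC3 (4.33), BRAP (4.18), C20orf196 (3.89), DLG4 (3.58) and C1orf2 (0.79).

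Of the other named genes, the ratio was lower after stimulation at ZNF784 (−4.01), COX6B1 (−3.64), COL4A4 (−3.47), PPM1A (−2.81), RPS13 (−2.43), HOXA7 (−2.10), KRT15 (−1.71), SMAD6 (−1.71), ADAMTS4 (−1.61), CDKN1C (−1.53), VIM (−1.30), LTBP3 (−1.08), LTBP4 (−1.03), BMPR1A (−0.95), KRTAP26-1 (−0.93), COL7A1 (−0.86), OR1A1 (−0.84), BMP15 (−0.76), S100A2 (−0.61), TAGLN (−0.58), JUNB (−0.58) and MYO1D (−0.50). It was higher at CCNA2 (3.08), MMP19 (3.07), CXCL6 (2.74), ZNF581 (2.73), GDF2 (2.35), HIST4H4 (2.30), OR6S1 (2.05), ATP5O (1.66), DEFB124 (1.47), TGIF2 (1.41), HOXC4 (0.99), RPS15A (0.98), FN1 (0.88), TGFB1 (0.80), SMAD2 (0.61), EPS8 (0.51) and SMAD4 (0.49). Of the genes named by the study and not by a list, SMAD6 showed the largest difference, with 0.07 and −0.06 in the unstimulated and −1.90 and −1.51 in the stimulated replicates, and its 3 probes from 256 to 499 bp downstream, which were not well above background in unstimulated cells, read −9.64 to −5.43 after stimulation. The paper reports, from fitted peak heights, increased SMAD3 binding after TGFβ1 at COL7A1, SMAD6, SMAD7, TGFB1, LTBP3, TAGLN and FOXA2. For FOXA2 it also reports binding of SMAD3 in a mobility shift assay. The values here are means over the promoter window, which is a different measure, and peaks were not fitted. By these means SMAD6, LTBP3, COL7A1 and TAGLN were lower and TGFB1 higher after stimulation. SMAD7 and FOXA2 were not called as changed, and FOXA2 had means of −0.30 in unstimulated and −0.66 in stimulated cells. The cause of these differences was not tested.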

How the results depend on the processing

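With normexp background correction, 2869 probes were higher and 4426 lower, 343 genes were higher, 410 lower and 1673 changed with stimulation. With measured probes as the centre, 154822 probes and 8553 genes were higher and 2931 genes lower, and with loess 6823 genes were higher and 3406 lower. With the median over the probes of a gene, 752 genes were higher, 1793 lower and 1787 changed. With a log2 ratio over 1 in size, 605 were higher and 1800 lower. The core minus distal difference was 0.17 with loess, 0.87 over measured probes, 0.0724 with the other centre and 0.0132 with a core of 500 bp. Leaving out 1 replicate gave 19298 to 22348 probes higher, 38515 to 48155 lower, 2463 to 2606 genes higher, 4694 to 5455 lower, 5805 to 6788 changed, and a core difference of 0.0179 to 0.0387, the lone unstimulated sample being assumed to vary like the stimulated pair. With the replicate number as a block, 37279 probes and 3579 genes were higher, 76178 probes and 6543 genes lower and 8435 genes changed. It changed no call of a named gene.

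Of 971 values of the 77 named genes under these settings, 832 kept direction and call. Another 103 kept direction and lost the call, 16 kept direction and gained one, and 20 turned sign. Some of the values that turned sign lost the call too and are not in the 103. The sign turned with the median over probes at ADAMTS4 (−0.46), JUNB (−0.13), LTBP3 (−0.21) and SMAD6 (−0.0399), with loess at COL7A1 (0.0676) and FOXA2 (0.17), and with normexp at FOXA2 (0.0332), ID2 (0.0510) and TAGLN (0.0311). It turned with the other centre at DEFB32 (0.11), FOXA2 (0.23) and ID2 (0.0186), and in a window of 500 bp at COL7A1 (0.17), OR1A1 (−0.11) and PDE7B (−0.0385). Without 1 of the unstimulated replicates the values ran from −0.0110 to 0.0658 at EPS8, −0.0428 to 0.0804 at FGB, −0.0174 to 0.193 at PDE7B and −0.0607 to 0.0681 at SMAD6, and over measured probes PDE7B was −0.0405. The cause was not tested. Signal over background limits the rest: 40.9% of probes were measured.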
